A study of Drosophila melanogaster with 10 samples.

Results

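The 7 genes described here encode the Drosophila melanogaster cohesin complex and the proteins that load it onto chromatin and take it off: vtd, SMC1, SMC3, SA, Nipped-B, wapl and pds5. They were picked by symbol among the 17895 gene rows of a salmon count table, and each symbol matched 1 row; the rule uses no measured value, although the genes were proposed with earlier results of these data known. RNA came from whole brains of larvae of the third instar, in 4 libraries labelled vostok and 4 control libraries whose names begin with yw. Vostok is the name the series gives to CG11504 and its mutant, and it asks what the gene does in chromatin organization and transcription; the labels describe neither the allele nor whether repeats were separate pools of animals. The p-values thus measure the spread between libraries, which may be technical, and in bulk brain RNA fewer cells of a type cannot be told apart from less RNA per cell. The 2 vostok Micro-C samples were not analysed here.

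Cohesin is a ring that holds DNA. SMC1 and SMC3 are long coiled-coil ATPases that join at a hinge, vtd (the fly Rad21) is the kleisin that closes the ring and is cut by separase at anaphase, and SA (stromalin, the Scc3 protein) binds the kleisin. Nipped-B loads the ring with its partner Mau2, wapl opens it again, and pds5 binds the kleisin and takes part both in release and in keeping sister chromatids together. In dividing cells the ring holds sister chromatids, and in chromosomes between divisions it extrudes loops; in fly mushroom body neurons, which no longer divide, it is needed for axon pruning.

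Levels are CPM (counts scaled per library size) of TMM-scaled gene counts. Differences are log2 fold changes, vostok over control, with their SE or 95% interval, from edgeR's quasi-likelihood test fitted to all 10749 genes that passed the count filter, with Benjamini-Hochberg adjusted p called at 0.05. Libraries held 57613848 to 81796126 estimated counts, and each member had between 6496 and 21262 counts in every library, far from the floor of 3 counts (0.0371 to 0.0519 CPM, counting error only). Ribosomal RNA, nuclear and mitochondrial, took 2.84% to 6.38% of counts but 10.6% in vostok replicate 3. The summed level of 12 blood cell markers ran from 425.9 to 9832 CPM in control and from 199.4 to 1074 CPM in vostok libraries, and that of 12 neuron markers from 2155 to 4944 CPM in control and from 4356 to 5108 CPM in vostok libraries, with no marker of either list at 0 in all libraries. CG11504 RNA was at 60.1 ± 4.99 CPM (SD, n = 4) in control and 73.6 ± 1.93 CPM in vostok libraries, a higher level (edgeR adjusted p = 0.0143), so this level gives no check of the mutant label. The groups also differed at yellow: y was at 0.846 ± 0.136 CPM in control and 123 ± 19.6 CPM in vostok libraries (adjusted p = 1.98e-06), and a difference of background cannot be told apart from that of vostok. Control replicate 2, with the lowest control sum of blood cell markers and the highest of neuron markers, lay in the vostok range of both.

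None of the 7 genes was called different between vostok and control brains. All 7 passed the count filter. edgeR called 0 of 7, whereas 28.3% of all genes tested were called. At an unadjusted p below 0.05 edgeR had 1 (SMC1), against 45.2% of all genes tested, DESeq2 called 1 (SMC1) and limma voom 0. Among all genes tested DESeq2 called more than edgeR, so the 28.3% is no measure for DESeq2 counts here or below. The median log2 fold change was 0.11 over the members and -0.01 over all genes tested, and the median absolute log2 fold change was 0.11 over the members and 0.26 over all. The 95% intervals of the fold ran from 0.873 (the low end, pds5) to 1.27 (the high end, wapl). The biological coefficient of variation, the spread between libraries beyond counting, had a median of 0.0895 over the members against 0.145 over all genes tested. The vostok range lay apart from the control range for 2 of the 7 genes (28.6%), as 33.2% of tested genes did.

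**Figure D1:**
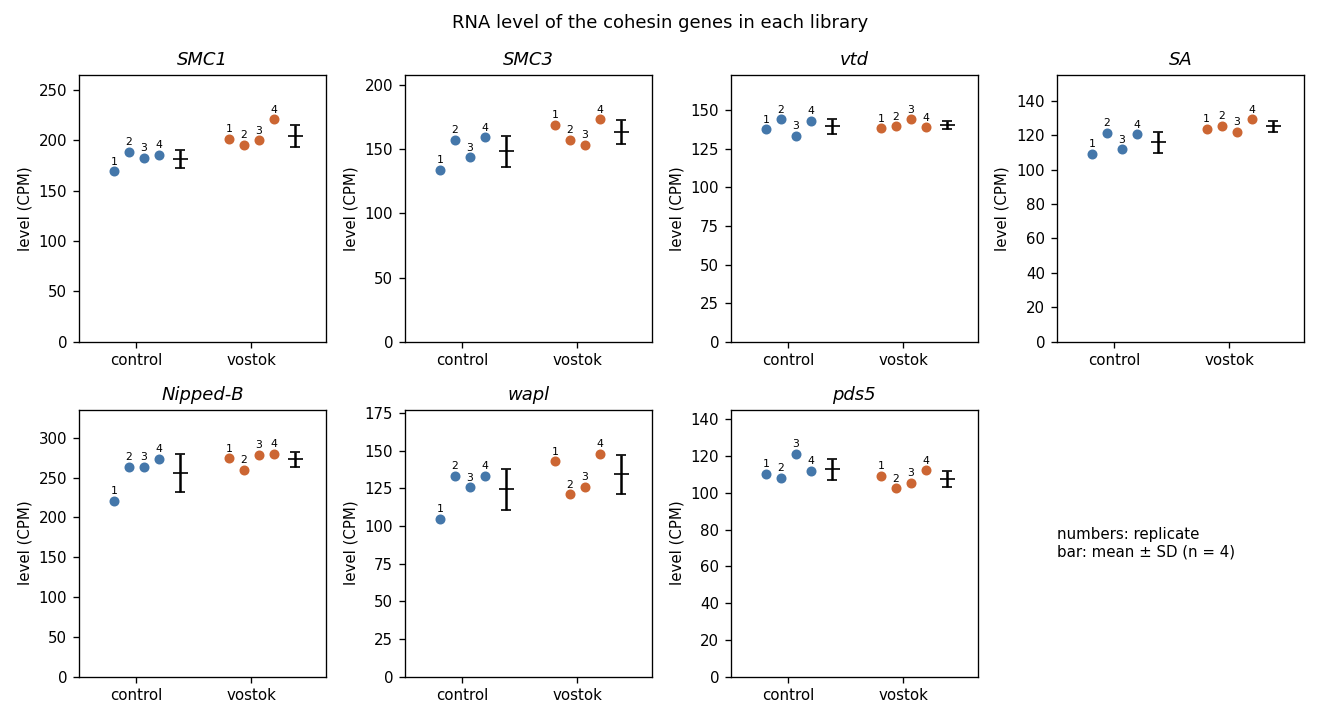
RNA level in CPM (vertical axis, from 0) of each cohesin gene in the 4 control (blue) and 4 vostok (orange) libraries, numbered by replicate, with the mean ± SD beside each group. All vostok points of SMC1 and SA lie above the control points, those of the other genes overlap, and control replicate 1 is lowest for 5 of the 7 genes.

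SMC1 (FBgn0040283; Release 6, chromosome 3R, 24058287 to 24062815), one of the paired ATPase arms, came closest to the threshold. Its levels were 169.2, 188.4, 182.5 and 185.9 CPM in control replicates 1 to 4 and 201.5, 195.4, 200.2 and 221.0 CPM in vostok replicates 1 to 4. Each vostok library thus lay above each control library. The log2 fold change was 0.17 ± 0.06 (fold 1.13, 95% interval 1.02 to 1.24, edgeR adjusted p = 0.0646, unadjusted p = 0.0214). Leaving out control replicate 2 brought it past the threshold (log2 fold change 0.19, adjusted p = 0.0488), as did upper quartile scaling (0.19, adjusted p = 0.0464) and DESeq2 (0.19, adjusted p = 0.0129). With the mean of the blood cell markers as a covariate the log2 fold change was 0.10 (adjusted p = 0.50).

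SMC3 (FBgn0015615; X, 16588996 to 16593439), the partner ATPase whose head is acetylated when cohesion is set up, moved less clearly. It was at 133.9, 157.1, 143.6 and 159.3 CPM in the controls, against 169.2, 157.3, 153.2 and 173.3 CPM in the vostok replicates. The groups overlapped, since vostok replicates 2 and 3 lay within the control range. Its log2 fold change was 0.14 ± 0.07 (fold 1.10, 95% interval 0.978 to 1.24, edgeR adjusted p = 0.174).

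The kleisin vtd (FBgn0260987; 3L, 27136525 to 27157999) had the smallest difference of the 7 genes. It was at 137.7, 144.0, 133.6 and 142.9 CPM in the controls, against 138.3, 139.6, 144.2 and 138.9 CPM in the vostok replicates. All 8 values fell between 133.6 and 144.2 CPM, and the log2 fold change was 0.01 ± 0.04 (95% interval of the fold 0.935 to 1.08, edgeR adjusted p = 0.916). Of all genes tested, 1.45% had a smaller absolute log2 fold change and 1.40% a smaller biological coefficient of variation. Its sign was not stable: it was negative without control replicate 1 (-0.0035), control replicate 3 (-0.0073) or vostok replicate 3 (-0.011).

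SA (FBgn0020616; 2L, 6950421 to 6954586), the kleisin-binding subunit, was at 109.2, 121.5, 111.8 and 120.4 CPM in the controls, against 123.8, 125.5, 121.8 and 129.2 CPM in the vostok replicates. The groups did not overlap, although vostok replicate 3 (121.8 CPM) lay just above control replicate 2 (121.5 CPM). The log2 fold change was 0.11 ± 0.05 (fold 1.08, 95% interval 0.996 to 1.17, edgeR adjusted p = 0.126). In the RefSeq annotation SA overlaps its neighbour CG13775 by 230 bases, and whether counting was stranded could not be learned from the sources used here; CG13775 was at 6.88 ± 0.533 CPM (controls) against 7.54 ± 0.302 CPM (vostok brains).

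The loader gene Nipped-B (FBgn0026401; 2R, 4691672 to 4729017) is the fly gene first known for helping a distant enhancer act on cut. Its RNA was at 221.1, 263.8, 263.7 and 273.9 CPM in the controls, against 274.1, 259.7, 278.6 and 279.5 CPM in the vostok replicates. Control replicate 1 stood below the other libraries, which lay between 259.7 and 279.5 CPM. With all libraries the log2 fold change was 0.09 ± 0.08 (fold 1.07, 95% interval 0.947 to 1.205, edgeR adjusted p = 0.343), and without control replicate 1 it was 0.03 (adjusted p = 0.683).

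The release factor wapl (FBgn0004655; X, 2149936 to 2158983) was the most variable of the 7 genes. It was at 104.8, 133.3, 125.8 and 133.5 CPM in the controls, against 142.9, 121.0, 126.3 and 147.8 CPM in the vostok replicates. In vostok brains replicates 1 and 4 lay above all control libraries, whereas replicates 2 and 3 lay within the control range. The log2 fold change was 0.11 ± 0.10 (fold 1.08, 95% interval 0.923 to 1.27, edgeR adjusted p = 0.388), and without control replicate 1 it was 0.04 (adjusted p = 0.764).

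pds5 (FBgn0260012; 2R, 12027985 to 12033725) was the one gene of the 7 with a negative log2 fold change. It was at 110.3, 108.2, 121.1 and 111.9 CPM in the controls, against 109.4, 102.4, 105.3 and 112.4 CPM in the vostok replicates. The groups overlapped, with control replicate 3 the highest and vostok replicate 2 the lowest library. The log2 fold change was -0.07 ± 0.05 (fold 0.951, 95% interval 0.873 to 1.04, edgeR adjusted p = 0.312), and without control replicate 3 it was -0.03 (adjusted p = 0.680).

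Libraries moved several members at once. Control replicate 1 was the lowest of the 8 libraries for SMC1, SMC3, SA, Nipped-B and wapl, and the median deviation of the 7 members from their own mean there was -0.19 on the log2 scale. The same library had the lowest sum of the neuron markers (2155 CPM), 3646 CPM of the blood cell markers and the highest sum of 24 replication and mitosis genes (3239 CPM, against 2408 to 3206 CPM in the other libraries). Control replicate 3 had sums of 2722, 9832 and 3206 CPM for these lists, but a median deviation of the members of -0.07. Vostok replicate 4 was the highest of the 8 libraries for 5 members, with a median deviation of 0.10, and had the lowest sum of the blood cell markers (199.4 CPM). With the blood cell mean as a covariate, log2 fold changes of the 7 genes lay between -0.04 and 0.10, and none was called. That fit called 965 of all 10749 genes tested, against 3040 in the main fit. Since the covariate differed between the groups, a part of what genotype changes may go into it.

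**Figure D2:**
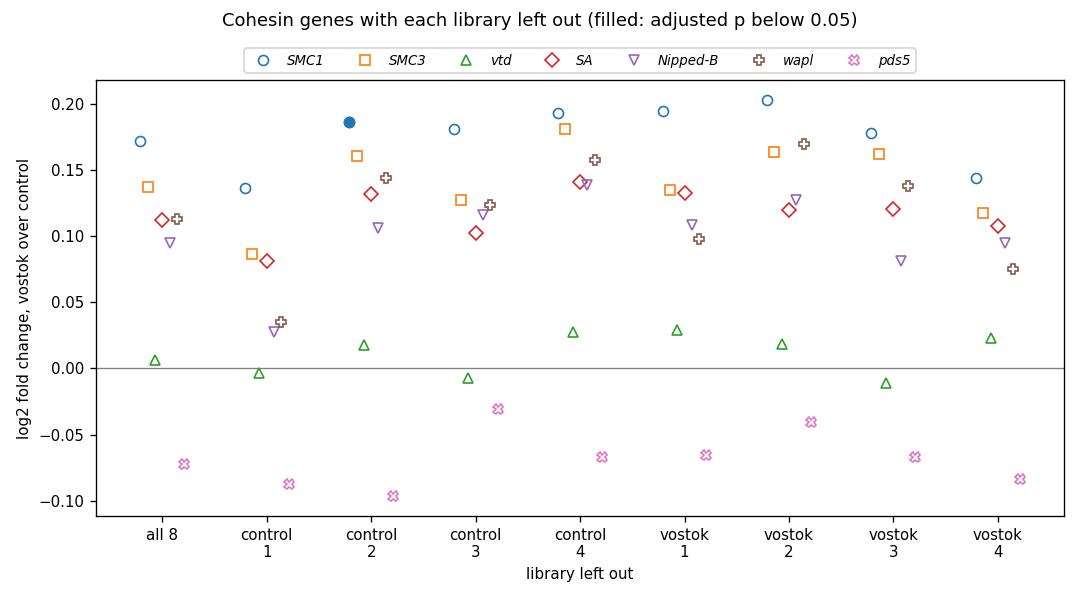
Log2 fold change, vostok over control (vertical axis), of each cohesin gene with all 8 libraries and with each library left out in turn (horizontal axis). The filled point is the one call made, SMC1 without control replicate 2; SMC1 stays highest and pds5 lowest throughout, and SMC1, SMC3, SA, Nipped-B and wapl are at their lowest without control replicate 1.

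A ratio of counts of 2 genes within a library does not depend on scaling between libraries, though it is no ratio of molecules, because gene counts were not divided by transcript length. Of the 21 ratios among the 7 genes, 6 had separate control and vostok ranges (28.6%), against 35.5% of all pairs of tested genes. Of those 6 ratios, 4 were among the 6 with pds5 as a partner, and the rest among the 15 without it. The 4 share pds5, itself not called, so they are not separate results. The log2 ratio of SMC1 over pds5 was 0.69 ± 0.10 (SD, n = 4) in control and 0.93 ± 0.04 in vostok libraries, a mean difference of 0.24, and every vostok library (0.88 to 0.98) lay above every control library (0.59 to 0.80). The corresponding differences were 0.21 for SMC3 over pds5, 0.19 for SA over pds5 and 0.17 for Nipped-B over pds5, each without overlap. The log2 ratio of wapl over pds5, the pair that takes part in release, was 0.13 ± 0.18 in control and 0.32 ± 0.08 in vostok libraries, and the groups overlapped.

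The other non-overlapping ratios had vtd as a partner. The log2 ratio of vtd over SMC1 was -0.38 ± 0.06 in control and -0.54 ± 0.09 in vostok libraries. That of vtd over SA was 0.27 ± 0.04 in control and 0.17 ± 0.06 in vostok libraries, with vostok replicate 3 (0.243) just below the lowest control library (0.246). The arms SMC1 and SMC3 kept a similar ratio, 0.29 ± 0.06 in control and 0.33 ± 0.06 in vostok libraries, and loader over release factor (Nipped-B over wapl) stood at 1.04 ± 0.04 and 1.03 ± 0.11. No test is given for these ratios, given how the members were chosen.

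**Figure D3:**
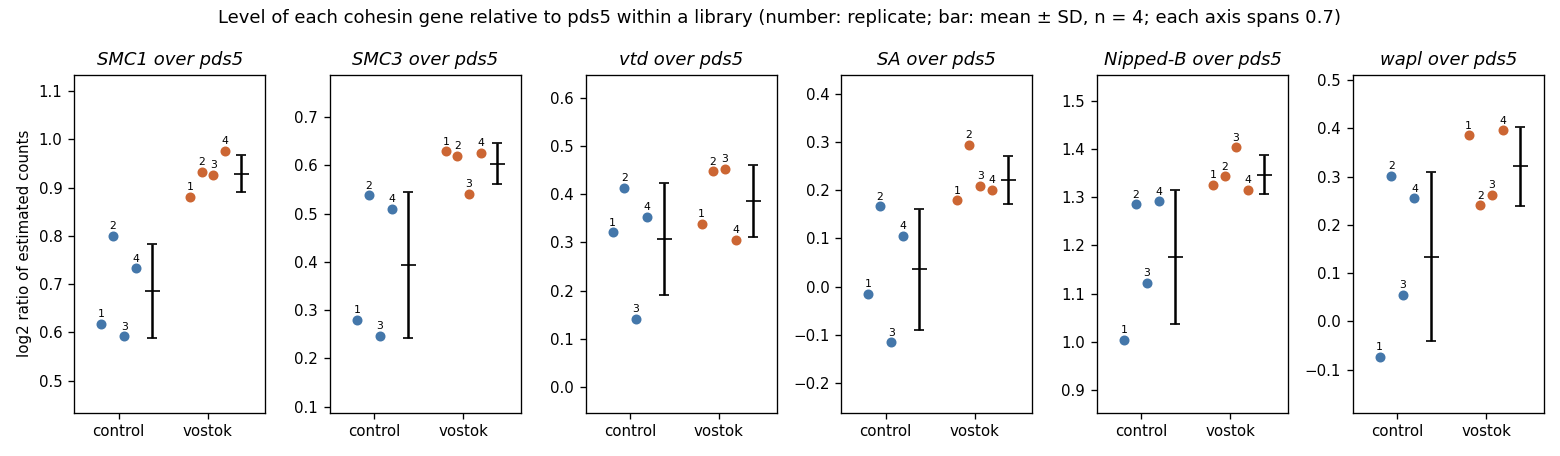
Log2 ratio of estimated counts of each cohesin gene over pds5 (vertical axes, each spanning 0.7) in the 4 control (blue) and 4 vostok (orange) libraries, numbered by replicate, with mean ± SD beside each group. The vostok points of SMC1, SMC3, SA and Nipped-B lie above all control points, with group differences of 0.17 to 0.24, while those of vtd and wapl overlap.

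Genes that act with cohesin went both ways. Of 8 cohesion cofactors, all tested, edgeR called 1 higher and 2 lower (37.5% called, against 28.3% of all genes tested; median log2 fold change -0.09). The lower ones were both parts of the cleavage step. Securin, encoded by pim, holds separase inactive until anaphase: it was at 21.5, 16.5, 20.4 and 17.1 CPM in the controls, against 12.4, 12.8, 13.5 and 13.7 CPM in the vostok replicates. Separase itself, encoded by Sse, was at 13.5, 11.3, 12.7 and 10.7 CPM in the controls, against 7.80, 8.22, 8.54 and 9.34 CPM in the vostok replicates. All vostok libraries lay below all control libraries for both genes. The log2 fold change of pim was -0.53 ± 0.10 (fold 0.695, edgeR adjusted p = 0.00794) and that of Sse -0.51 ± 0.10 (fold 0.703, adjusted p = 0.00899), and each remained called with any 1 library left out (highest adjusted p 0.0292 for pim and 0.0346 for Sse). With the blood cell covariate neither was called (edgeR adjusted p = 0.0972 for pim and 0.0654 for Sse). Their log2 fold changes there were -0.44 ± 0.13 for pim and -0.52 ± 0.14 for Sse. That fit called 965 of all 10749 genes tested.

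The third separase pathway gene, thr, which forms part of the fly separase complex, was at 42.5 ± 1.29 CPM (controls) against 41.1 ± 3.52 CPM (vostok brains) and was not called (edgeR adjusted p = 0.592). The shugoshin gene mei-S332, which protects centromeric cohesion, was higher, at 24.2 ± 1.12 CPM (controls) against 27.3 ± 1.18 CPM (vostok brains) (log2 fold change 0.17 ± 0.06, edgeR adjusted p = 0.0499). It no longer passed when any of 7 of the 8 libraries was left out (highest adjusted p 0.138, without vostok replicate 3; called only without vostok replicate 1, 0.0442). Dalmatian, encoded by dmt and known as a fly protector of cohesion, had separate groups at 56.9 ± 2.24 CPM (controls) against 61.6 ± 1.91 CPM (vostok brains), with an adjusted p of 0.0998 by edgeR.

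The other cofactors were not called. Mau2, the partner of Nipped-B in the loader, was at 29.5 ± 1.19 CPM (controls) against 28.5 ± 1.49 CPM (vostok brains) (edgeR adjusted p = 0.491). The acetyltransferase gene eco, whose product acetylates SMC3, was at 57.4 ± 9.07 CPM (controls) against 49.4 ± 5.68 CPM (vostok brains) (log2 fold change -0.22 ± 0.13, adjusted p = 0.209). The acetyltransferase gene san, also needed for cohesion, was at 53.0 ± 4.15 CPM (controls) against 48.5 ± 1.26 CPM (vostok brains) (adjusted p = 0.145).

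**Figure D4:**
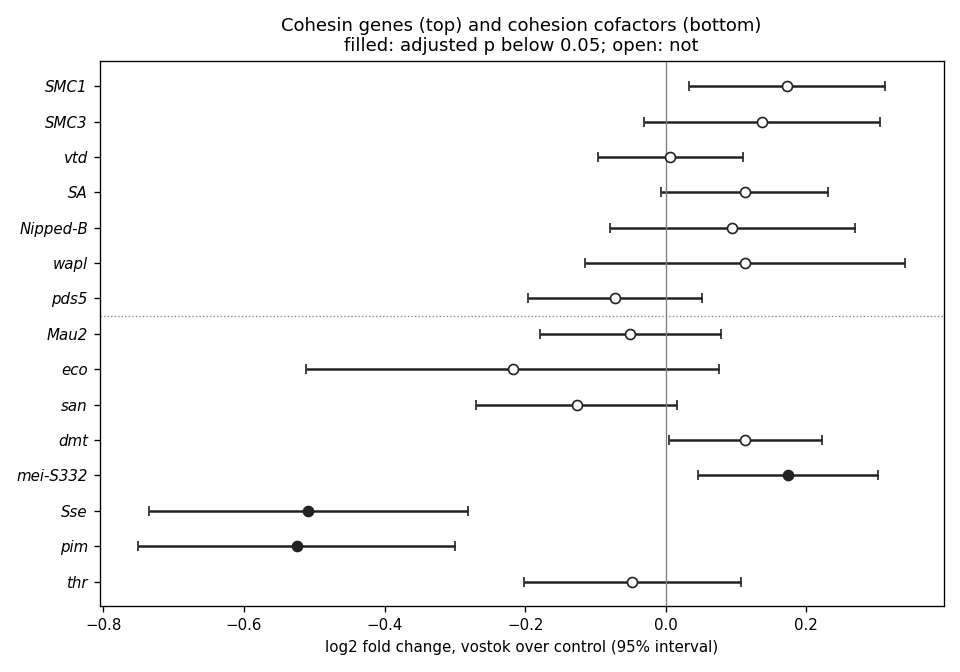
Log2 fold change, vostok over control, with its 95% interval (horizontal axis) for the 7 cohesin genes above the dotted line and 8 cohesion cofactors below it. Filled points passed an adjusted p of 0.05: pim and Sse at about -0.5 and mei-S332 at 0.17; the cohesin genes are all open and lie between -0.07 and 0.17.

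Of 24 replication and mitosis genes edgeR called 0 higher and 4 lower, or 16.7%, below the 28.3% called among all genes tested and near the 16.2% called lower. At an unadjusted p below 0.05 there were 0 higher and 17 lower (either direction, 45.2% of all genes tested). DESeq2, which called more of all genes tested than edgeR, called 0 and 11. The median log2 fold change was -0.25, and 21 of 24 were negative. Among the called genes were the mitotic kinase gene aurA (25.5 ± 3.28 CPM in control, 19.1 ± 1.2 CPM in vostok libraries, adjusted p = 0.0186), the mitotic cyclin gene CycB (196 ± 29.4 and 147 ± 12.0 CPM, adjusted p = 0.0305) and RnrL, a subunit of ribonucleotide reductase (146 ± 16.7 and 117 ± 8.20 CPM, adjusted p = 0.0364). The part of this group in the levels of pim and Sse was not tested. Leaving out 1 library changed this group's count, to 16 without control replicate 2, to 1 without control replicate 1, control replicate 3 or vostok replicate 1, and to 0 without vostok replicate 2 or 3. The count over all genes moved too. It was 5333 of 10987 without control replicate 2, 1521 of 10891 without vostok replicate 2 and 1538 of 10874 without vostok replicate 3. Calls of aurA, CycB and RnrL were lost without 2, 5 and 5 of the libraries in turn (highest adjusted p 0.058, 0.0849 and 0.101, each without vostok replicate 2).

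The 6 replication fork genes linked to cohesion by work in yeast or flies (Ctf4, cutlet, elg1, timeout, Claspin and CG11403, the Chl1 gene) all had negative log2 fold changes, from -0.38 to -0.18. edgeR called 0 of 6, against 28.3% of all genes tested. At an unadjusted p below 0.05 there were 3 lower (either direction, 45.2% of all genes tested). DESeq2, which called more of all genes tested than edgeR, called 2 lower. Claspin was at 47.2 ± 7.75 CPM (controls) against 36.3 ± 3.58 CPM (vostok brains) (adjusted p = 0.0552) and Ctf4 at 40.3 ± 4.22 CPM (controls) against 33.3 ± 3.29 CPM (vostok brains) (adjusted p = 0.0631). Without control replicate 2 edgeR called 4 of the 6, Claspin (adjusted p = 0.0107) and Ctf4 (0.0226) among them. In that run 5333 of the 10987 genes tested were called.

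Condensin and the SMC5 and SMC6 complex are built on related SMC proteins. Of 7 condensin genes edgeR called 0, against 28.3% of all genes tested, with a median log2 fold change of 0.06. By its unadjusted p (below 0.05) 2 were higher (either direction, 45.2% of all genes tested). DESeq2, which called more of all genes tested than edgeR, called 2 higher. Control and vostok ranges did not overlap for Cap-H2 (fold 1.17, adjusted p = 0.0726) and Cap-D3 (fold 1.11, adjusted p = 0.0736), named after their values were seen. Among all genes tested 33.2% had ranges that did not overlap. The subunit gene Cap-G was at 145 ± 3.93 CPM (controls) against 148 ± 9.01 CPM (vostok brains), and glu, which encodes SMC4, at 141 ± 5.44 CPM (controls) against 147 ± 13.8 CPM (vostok brains). Without control replicate 2, 1 condensin gene was called, in a run that called 5333 of all 10987 genes tested.

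Of 7 genes of the SMC5 and SMC6 complex, which acts in DNA repair, 1 was higher and 1 lower (28.6% called, near the 28.3% of all genes tested), with a median log2 fold change of -0.10. qjt is a SUMO ligase gene of that complex with a paralog in cerv. It was at 0.132 ± 0.0723 CPM (controls) against 0.529 ± 0.0735 CPM (vostok brains) (edgeR adjusted p = 0.00954). Its value is uncertain where counting divides reads between the copies. Control levels of qjt, 0.064 to 0.202 CPM, came near the floor of 3 counts (0.048 CPM in control replicate 3). With the blood cell covariate qjt was not called (edgeR adjusted p = 0.0937), at a log2 fold change of 1.62 against 1.97 in the main fit. The subunit gene Nse1 was at 6.63 ± 1.29 CPM (controls) against 4.64 ± 0.211 CPM (vostok brains) (adjusted p = 0.0373), a call lost without any of 6 libraries (highest adjusted p 0.0948, without vostok replicate 2). The 5 genes of meiotic cohesion were close to silent: 1, sunn, passed the count filter, at 0.391 ± 0.121 CPM (controls) against 0.306 ± 0.0646 CPM (vostok brains) (adjusted p = 0.358), and their summed level was 0.464 to 0.933 CPM over the 8 libraries.

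Cohesin shares sites on chromosomes with insulator and loop proteins. Of 15 genes listed with these, CG11504 itself among them, 3 were called, 1 higher (CG11504) and 2 lower. That is 20% called, against 28.3% of all genes tested, with a median log2 fold change of 0.04. Whether CG11504 shares sites with cohesin was not examined here. Ibf1, which binds insulators with Cp190, was at 31.9 ± 3.16 CPM (controls) against 25.5 ± 1.13 CPM (vostok brains) (edgeR adjusted p = 0.0198), and the insulator gene dwg (Zw5) at 29.4 ± 1.45 CPM (controls) against 25.7 ± 1.24 CPM (vostok brains) (adjusted p = 0.0417). Leaving out 1 library ended the call of Ibf1 in 3 cases (highest adjusted p 0.0601), that of dwg in 7 (highest 0.11) and that of CG11504 in 1 (0.0531), in each case at its highest without vostok replicate 3. Without that library 0 of the 15 genes was called, and without vostok replicate 1 or 4 there was 1. Over all genes the calls were 1538 of 10874 without vostok replicate 3, 1934 of 10909 without vostok replicate 1 and 1822 of 10920 without vostok replicate 4.

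Genes reported to respond to Nipped-B or cohesin dosage in flies were listed as ct, Ubx, en, inv, EcR and 11 E(spl) complex genes. Of 16 tested, edgeR called 0 higher and 5 lower (31.3% called, near the 28.3% of all genes tested). Their median log2 fold change was -0.49. At an unadjusted p below 0.05 there were 0 higher and 10 lower (either direction, 45.2% of all genes tested). DESeq2, which called more of all genes tested than edgeR, called 0 and 8. The 5 called genes all belong to the E(spl) complex, whose genes respond to Notch. E(spl)mgamma-HLH was at 59.0 ± 8.39 CPM (controls) against 38.3 ± 4.91 CPM (vostok brains) (edgeR adjusted p = 0.0105). E(spl)m4-BFM was at 58.9 ± 16.0 CPM (controls) against 33.1 ± 4.19 CPM (vostok brains) (adjusted p = 0.0187), and E(spl)malpha-BFM at 46.4 ± 18.4 CPM (controls) against 23.6 ± 3.21 CPM (vostok brains) (adjusted p = 0.0329). The call of E(spl)mgamma-HLH held with any 1 library left out, while that of E(spl)m4-BFM was lost without vostok replicate 2 (0.058) or 3 (0.0554) and that of E(spl)malpha-BFM without any of 6 libraries (highest 0.0889). Without control replicate 2 the list had 11 calls, without control replicate 1, control replicate 3 or vostok replicate 1 it had 2, without vostok replicate 4 it had 3, and without vostok replicate 2 or 3 it had 1. Over all genes the calls were 5333 of 10987 without control replicate 2, 1521 of 10891 without vostok replicate 2 and 1538 of 10874 without vostok replicate 3. Chosen after their values were seen, ct was at 405 ± 131 CPM (controls) against 557 ± 68.5 CPM (vostok brains) (adjusted p = 0.166) and EcR, a cohesin-dependent gene of pruning neurons, at 197 ± 23.2 CPM (controls) against 204 ± 15.6 CPM (vostok brains) (adjusted p = 0.702).

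Marker genes of cell types were compared as RNA levels. Of 9 neural progenitor markers 2 were higher (tll and mira), of 12 neuron markers 0 (1 higher by unadjusted p, 1 by DESeq2), of 9 glia markers 1 higher and 2 lower, of 12 blood cell markers 3 lower and of 9 imaginal disc markers 2 lower. In that order 22.2%, 0%, 33.3%, 25% and 22.2% of the markers were called, against 28.3% of all genes tested (12.1% higher and 16.2% lower). All 12 blood cell markers had negative log2 fold changes, from -5.11 to -1.66, and 0 had separate control and vostok ranges. DESeq2, which called more of all genes tested than edgeR, called 10 of these 12 lower. By unadjusted p (below 0.05) the lists had, in the same order, 3, 1, 1, 0 and 1 higher and 1, 0, 3, 10 and 3 lower (either direction, 45.2% of all genes tested). Without control replicate 2 these lists had 5, 8, 4, 12 and 6 calls, in a run that called 5333 of all 10987 genes tested. Without any other library they had at most 1, 0, 2, 3 and 2. The fewest genes were called without vostok replicate 2, 1521 of 10891. Median log2 fold changes were 0.19, 0.40, 0.05, -2.49 and 0.01 in that order. The summed level of the progenitor markers was 3597 to 7471 CPM in control and 7726 to 8682 CPM in vostok libraries. Most of that sum was pros, at 2952 to 6811 CPM in control and 7028 to 7989 CPM in vostok libraries (adjusted p = 0.113), and grh, of the same list, had a log2 fold change of -0.76 (adjusted p = 0.0549). Glia markers summed to 1042 to 1338 CPM in control and 1060 to 1120 CPM in vostok libraries. Disc markers summed to 397.9 to 424.2 CPM in control and 406.0 to 442.7 CPM in vostok libraries. The part of these markers in the levels of the cohesin genes was not tested beyond the covariate fit.

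**Figure D5:**
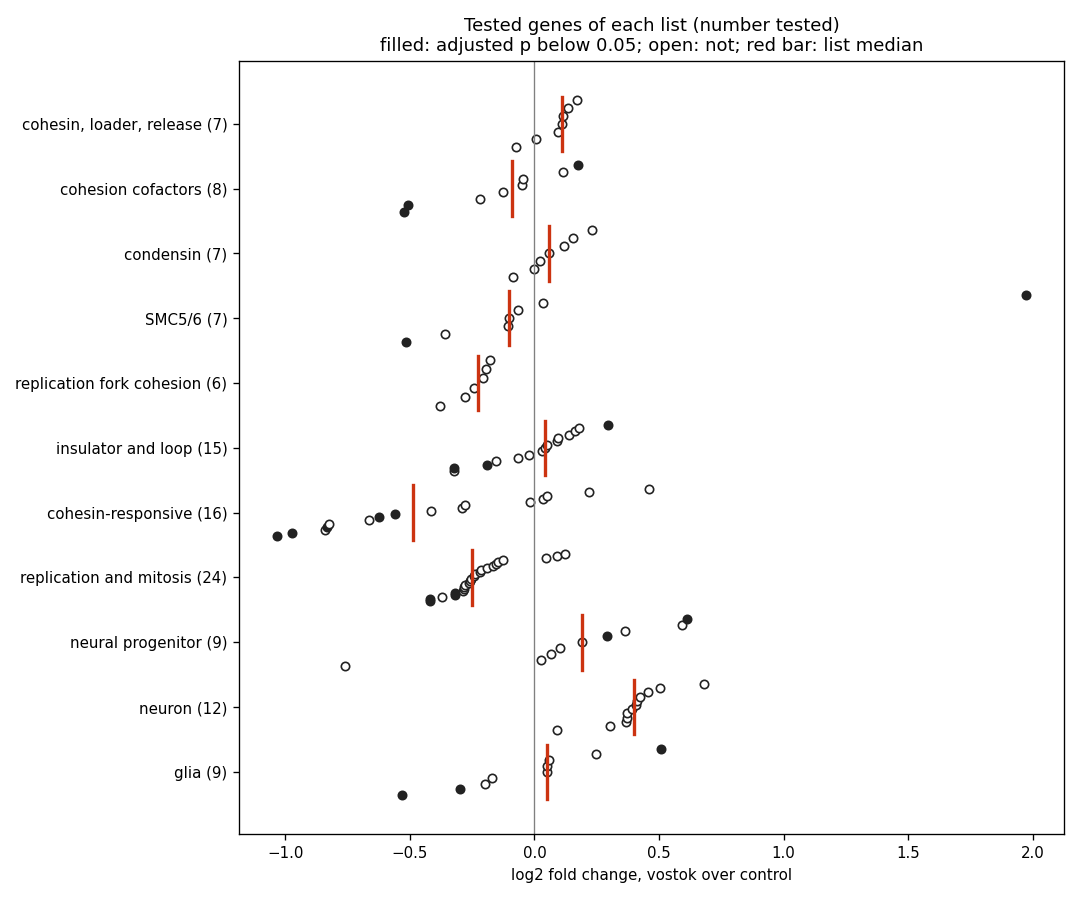
Log2 fold change, vostok over control (horizontal axis), of every tested gene of each list (rows, with the number tested; the meiotic, blood cell and disc lists are not drawn); filled points passed an adjusted p of 0.05 and red bars are list medians. The 7 cohesin genes cluster at -0.07 to 0.17 with no filled point, whereas replication and mitosis genes have a median of -0.25 and neuron markers one of 0.40.

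The nearest tested gene on each side of each member gave 14 neighbours, of which edgeR called 2 higher and 1 lower (21.4%, against 28.3% of all genes tested). The higher ones were low noncoding RNAs beside the members in pericentromeric chromatin. lncRNA:CR45181, 475 bases from vtd, was at 0.149 ± 0.0307 CPM (controls) against 0.619 ± 0.323 CPM (vostok brains) (adjusted p = 0.00818); it was not called with the blood cell covariate (0.0631) or without control libraries 1 and 3 (0.0508). Next, lncRNA:CR45471, 1463 bases from Nipped-B, was at 0.324 ± 0.154 CPM (controls) against 1.52 ± 0.163 CPM (vostok brains) (adjusted p = 0.00569). CG13014, 65 bases from SMC3, was at 11.2 ± 1.05 CPM (controls) against 9.02 ± 0.428 CPM (vostok brains) (adjusted p = 0.033), a call lost without any of 6 libraries (highest adjusted p 0.0887, without vostok replicate 3). The ribosomal protein gene RpL15, on the other side of vtd, was at 1366 ± 173 CPM (controls) against 1161 ± 71.4 CPM (vostok brains) and was called only without control replicate 2 (adjusted p = 0.0294, against 0.0998 with all libraries). eIF4EHP, beside SMC1, likewise passed without control replicate 2 alone (0.024 against 0.223). The other neighbours, Hsp68, Ubc7, Gas41, CG13775, CG17883, bcn92, Cyp4d1, Mppe and CG8321, were not called (adjusted p = 0.109 to 0.919).

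Likeness to each member was taken as the root mean square difference of log2 CPM, centred per gene, over the 8 libraries. Among the members themselves SMC3 and SA were closest to each other (0.0497), followed by SMC1 and SA (0.0508), and pds5 was farthest from its closest member, vtd (0.0936). Among all other genes of at least 5 CPM, the closest to SA were Ankle2 (0.0185) and dmt (0.0212), the latter a cohesion cofactor. Chro, which encodes the chromatin protein Chromator, was closest to SMC1 (0.0247), followed by CG5087 (0.0270). The closest to vtd were alphaSnap (0.0131) and CG4617 (0.0165), to SMC3 CG7692 (0.0238) and snama (0.0326), and to Nipped-B lap (0.0266) and Tnpo (0.0293). BRWD3 (0.0226) and Sos (0.0254) were closest to wapl, and Mms19 (0.0210) and Klp10A, a kinesin gene, (0.0243) to pds5. Their adjusted p by edgeR ran from 0.0669 to 0.933, and Ankle2 passed without control replicate 2 (0.0359). With little variation to match, these distances describe flat profiles in 8 libraries.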

How the data were processed

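Bulk RNA-seq of larval brain was deposited as a table of estimated counts per gene, unscaled, with 1 column per library; its name credits salmon. Trizol extraction and a directional library kit are given per the labels' protocols. The submitters' processing notes list BWA and dm6, with no role stated. For salmon's version, the annotation and stranded counting the sources used here give nothing. Of 24278 rows, the 17895 gene rows were used.

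Counts were rounded, filtered with filterByExpr, scaled by TMM and tested with edgeR 4.0.16 in R 4.3.3 (robust quasi-likelihood F test, genotype only), vostok against control. The SE is the absolute log2 fold change over the square root of F, and intervals use the test's degrees of freedom. CPM use TMM-scaled library sizes. DESeq2 1.42.0 and limma 3.58.1 (voom) were alternatives, with other scalings and filters, an adjusted p below 0.01, a replicate block, a blood cell covariate (mean log2 CPM of the list, prior count 2), library sizes without ribosomal RNA genes and libraries left out. The test was tried on simulated counts. Positions come from the RefSeq table of Release 6, the assembly of dm6; the strand of neighbours was not used. SA is SA1 there. The list names snm, SMC6, ctf4 and Chl1 were matched to SA-2, jnj, Ctf4 and CG11403.

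The 7 genes and the lists were chosen with earlier results of these data known. Named genes were CG11504, the members, all cofactors, of each other list the 3 called genes with the smallest p (or the 2 most abundant where none was called), the nearest tested gene on each side of a member and the 2 closest profiles; marker lists are given mainly by counts and sums, and y, ct, EcR, Cap-H2, Cap-D3, pros and grh were named after their values were seen. Figures were drawn with matplotlib 3.10.9.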

Additional observations from a re-analysis of the deposited data

How the results depend on the processing

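Among the cohesin genes SMC1 was the one called under any alternative run. Members called numbered 1 with upper quartile scaling and with DESeq2 (SMC1 at 0.19 on the log2 scale in both), 0 to 1 over single libraries left out (SMC1 at 0.14 to 0.20), and 0 otherwise. The sign of vtd turned with no count filter (-0.013), the blood cell covariate (-0.029), without both control libraries 1 and 3 (-0.033) and over single libraries left out (-0.011 to 0.029). The genes called among all tested numbered 3040, against 1668 with the stricter filter (5 CPM in 4 libraries), 965 with the covariate, 1593 without control libraries 1 and 3, 1057 at an adjusted p below 0.01, 4330 with DESeq2 and 1521 to 5333 over single libraries left out. The cause was not tested for any of these.

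Same-numbered control and vostok libraries had correlations of 0.18, 0.0071, 0.039 and -0.047 in their deviations from group means. Other pairs ran from -0.38 to 0.31. These values cannot show whether same-numbered libraries were prepared together, and the main test used no pairing. With the number as a replicate block, 1564 genes were called, 0 of them members; calls were 1 among cofactors, SMC5 and SMC6, progenitor and disc genes, 2 among cohesin-responsive genes, and 0 among insulator, replication and mitosis, and blood cell genes.

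In list order (cofactors, condensin, SMC5 and SMC6, fork, insulator, cohesin-responsive, replication and mitosis, progenitor, neuron, glia, blood cell, disc), main calls were 3, 0, 2, 0, 3, 5, 4, 2, 0, 3, 3 and 2. DESeq2 gave 4, 2, 3, 2, 6, 8, 11, 4, 1, 4, 10 and 4. The covariate gave 0 in every list but progenitor (1) and blood cell (1). Without control libraries 1 and 3, calls were 1 for cofactors, SMC5 and SMC6, insulator, replication and mitosis and progenitor genes, 2 for cohesin-responsive genes, and 0 for blood cell and disc genes. At an adjusted p below 0.01, 1 was left for SMC5 and SMC6, progenitor and glia genes and 0 for insulator, cohesin-responsive, replication and mitosis, blood cell and disc genes. The stricter filter gave 1 for SMC5 and SMC6 and 3 for cohesin-responsive genes, no filter 1 for progenitor genes, and voom 1 for disc genes. Over single libraries left out, calls ran in list order from 2 to 3, 0 to 1, 1 to 3, 0 to 4, 0 to 4, 1 to 11, 0 to 16, 1 to 5, 0 to 8, 2 to 4, 0 to 12 and 1 to 6. The call of mei-S332 was lost under 7 of the other settings, that of Sse under the block (adjusted p = 0.0523), the covariate (0.0654) and without control libraries 1 and 3 (0.0508), and that of pim under the covariate (0.0972), all by edgeR except voom for mei-S332 (0.0528).

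Uncalled genes near 0 also changed sign. Gas41 stood at 0.0068 with RLE, 0.0039 with upper quartile, 0.0026 with library totals, 0.010 with the stricter filter, 0.0080 with DESeq2, 0.014 with the covariate, 0.015 without control libraries 1 and 3 and -0.042 to 0.042 over single libraries left out. alphaSnap stood at 0.011, 0.0082, 0.0073, 0.014 and 0.011 under the first 5 of these, 0.00038 without ribosomal RNA genes and -0.027 to 0.017 over libraries left out. CG4617 was at -0.0100 with no filter, -0.022 with the covariate, -0.025 without control libraries 1 and 3 and -0.0082 to 0.035 over libraries left out. eIF4EHP was at -0.041 with the covariate, lap at -0.0088 without control libraries 1 and 3, and thr at -0.092 to 0.0042 over libraries left out.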
